A study of Homo sapiens with 4 samples.

Results

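The mitochondrial ribosomal protein genes were examined in MV4-11 cells, a human acute myeloid leukemia (AML) cell line, with and without knockdown of CEBPG. Members were all genes whose symbol was MRPL or MRPS followed by a number and at most 1 letter, which gave 78 of the 16490 genes in the expression table, and all 78 passed the filter on low values and were tested among 12142 genes. The study compared 2 libraries of cells carrying sh-NC, the negative control hairpin, with 2 libraries of cells carrying sh-CEBPG#3, a short hairpin RNA against the mRNA of CEBPG. Both hairpins were delivered in a lentiviral vector with a puromycin resistance gene, and the infected cells were selected with puromycin. A single hairpin was sequenced, so that changes due to CEBPG and changes due to that hairpin alone cannot be told apart. Whether replicate libraries derive from separate infections is not said in the labels or methods, and the p-values then measure only the spread between these libraries, which may be technical.

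Mitochondria hold ribosomes of their own, the mitoribosomes, which translate the few mRNAs encoded by mitochondrial DNA into membrane subunits of the respiratory chain and ATP synthase. Their ribosomal RNAs are made inside the mitochondrion, whereas all of their proteins are encoded in the nucleus, translated in the cytosol and imported. Proteins named MRPS and MRPL were assigned to the small and the large subunit respectively, some being homologues of bacterial ribosomal proteins and others being found only in mitochondria. CEBPG, the target of the hairpin, is a basic leucine zipper transcription factor that binds DNA as a dimer with other members of that family.

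CEBPG itself had 30.4 and 33.6 FPKM in sh-NC and 19.2 and 17.1 FPKM in sh-CEBPG#3, where FPKM is the number of fragments on a transcript scaled by its length and by all mapped fragments of the library. Its mean was 56.8% of that of the control (log2 fold change -0.78, SE 0.088, n = 2 against 2, adjusted p = 8.88e-05 in limma). The libraries of 1 group correlated at 0.993 (sh-NC) and 0.994 (sh-CEBPG#3) over the genes tested on the log2 scale, and libraries of different groups at 0.962 to 0.964. Of 8 myeloid marker genes, all were listed, 7 were tested and 5 were higher in sh-CEBPG#3 (CD33, SPI1, LYZ, MPO and CSF1R), the summed level of all 8 being 858 and 932 FPKM in sh-NC and 3524 and 3356 FPKM in sh-CEBPG#3. Most of that sum was LYZ, the gene of lysozyme, with 567 and 610 FPKM against 3126 and 2982 FPKM, while FLT3, at 90.3% of the control, was not called. COL1A1, a marker of fibroblasts, stayed at or below 0.0781 FPKM, and further markers of other lineages are not reported here. The part of the myeloid marker change in the values of the ribosomal protein genes was not tested.

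The 78 members were expressed at moderate and rather even levels. Their mean over the 4 libraries ran from 0.72 FPKM (MRPS36) to 92.0 FPKM (MRPL12) with a median of 27.8 FPKM, compared with a median of 7.51 FPKM over all genes tested, and 67 members lay between 10 and 60 FPKM. FPKM is scaled by transcript length, so that the levels of different genes can be set side by side. The members' sum was 2560 and 2714 FPKM in sh-NC and 2563 and 2508 FPKM in sh-CEBPG#3, and the range of the sh-CEBPG#3 libraries overlapped that of the controls. As a share of all FPKM in a library it was 0.703% and 0.699% in sh-NC and 0.657% and 0.667% in sh-CEBPG#3, lower in both knockdown libraries.

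MRPL12, the protein that forms the flexible arm of the ribosomal stalk, was the most abundant member, with 79.1 and 88.6 FPKM in sh-NC and 104 and 96.3 FPKM in sh-CEBPG#3. The next was MRPS12, part of the decoding center of the small subunit, with 82.2 and 78.9 FPKM against 83.4 and 78.7 FPKM. MRPL18, in the central protuberance of the large subunit, had 80.6 and 90.1 FPKM against 61.6 and 64.3 FPKM. The ranges of these 3 genes overlapped in the control libraries, so that their order there was not resolved. MRPS34 (67.4 and 70.8 FPKM against 62.4 and 60.7 FPKM) and MRPL51 (77.7 and 80.1 FPKM against 47.6 and 53.8 FPKM), both mitochondria-specific proteins, completed the upper 5.

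At the lower end stood MRPS36, MRPL19 and MRPL22. MRPS36 had 1.61 and 0.287 FPKM in sh-NC and 0.460 and 0.523 FPKM in sh-CEBPG#3. The control libraries of MRPS36 lay on both sides of the knockdown libraries, and its protein, now named KGD4, is a subunit of the 2-oxoglutarate dehydrogenase complex and no mitoribosome subunit. It did not pass the test (log2 fold change -0.30, adjusted p = 0.397 in limma), while without sh-NC replicate 2 it was called (-0.81, adjusted p = 0.000116). That fit holds a single control library, and the prior degrees of freedom of limma were infinite in it. Its spread is therefore the one that limma models for genes of that level, and it leaves out the distance between the controls. MRPL19 (6.66 and 6.31 FPKM against 6.03 and 5.74 FPKM) and MRPL22 (6.08 and 5.95 FPKM against 6.41 and 7.51 FPKM) did not pass the test. Both encode homologues of bacterial large subunit proteins, and they were expressed at similar levels.

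**Figure D1:**
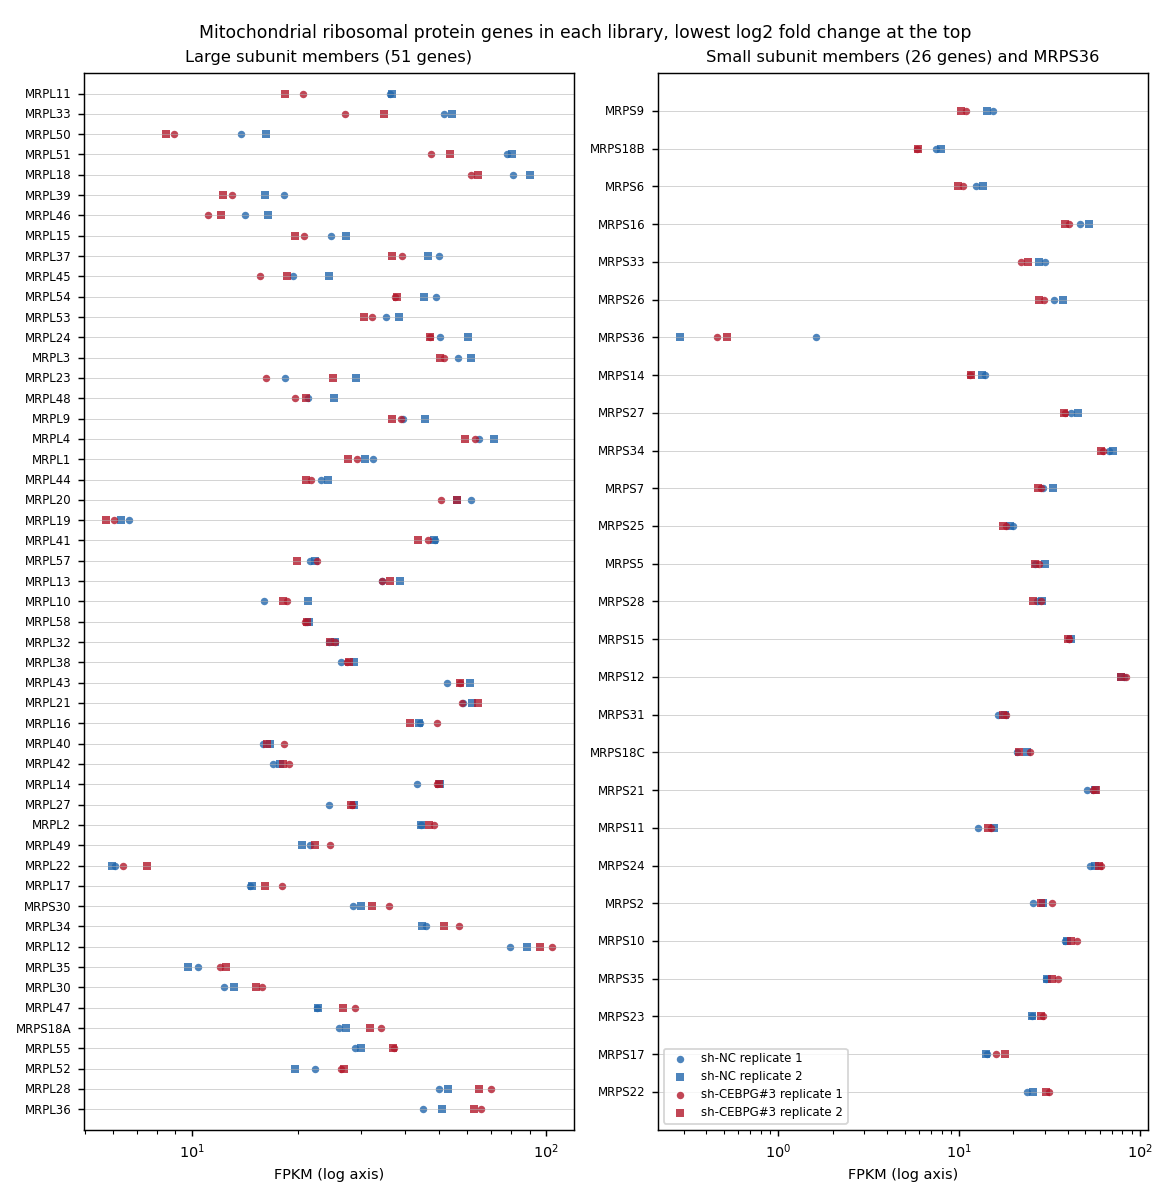
Level of each of the 78 genes in each library in FPKM on a log axis, large subunit genes on the left and small subunit genes with MRPS36 on the right, ordered by log2 fold change. Circles and squares are replicates 1 and 2, sh-NC in blue and sh-CEBPG#3 in red. The points separate by group at the upper and lower ends and mingle in the middle.

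After knockdown of CEBPG, 20 members were lower, 12 were higher and 46 did not pass an adjusted p of 0.05 in limma on log2(FPKM + 1). The 32 members called are 41.0% of the 78, where 42.2% of all genes tested were called. By direction, 25.6% of the members were lower against 23.8% of all genes, and 15.4% were higher against 18.5%. At a mean level of 5 FPKM or more, 32 of 77 members (41.6%) were called and 48.5% of all such genes. The share called among the mitochondrial ribosomal protein genes was thus near that among all genes. In 56 members (71.8%) the groups did not overlap, 34 of them lower and 22 higher, and this held for 71.7% of all genes tested.

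The sizes of the changes were small. The median log2 fold change of the members was -0.034 and that of all genes tested was -0.038, with a standard deviation across genes of 0.27 against 0.46. It ran from -0.87 (MRPL11) to 0.41 (MRPL36), 43 members changed by less than 0.2 in size, and 4 members (MRPL11, MRPL33, MRPL50 and MRPL51, all lower) by more than 0.5, a size that 18.5% of all genes tested passed. No member met an unadjusted p of 0.05 with an absolute log2 fold change above 1, a threshold that 3.41% of all genes and 3.45% of those at 5 FPKM or more passed, although 38 members had an unadjusted p under 0.05. The number called changed when a library was left out. Such a fit has 1 library in a group and another modelled variance, so that the change cannot be laid to the library itself. The median of the members was -0.076 without sh-NC replicate 1 and 0.020 without sh-NC replicate 2. It was -0.045 without sh-CEBPG#3 replicate 1 and -0.016 without sh-CEBPG#3 replicate 2. Counting error cannot be given for any value here, since FPKM carry no read counts and the depth is unknown.

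**Figure D2:**
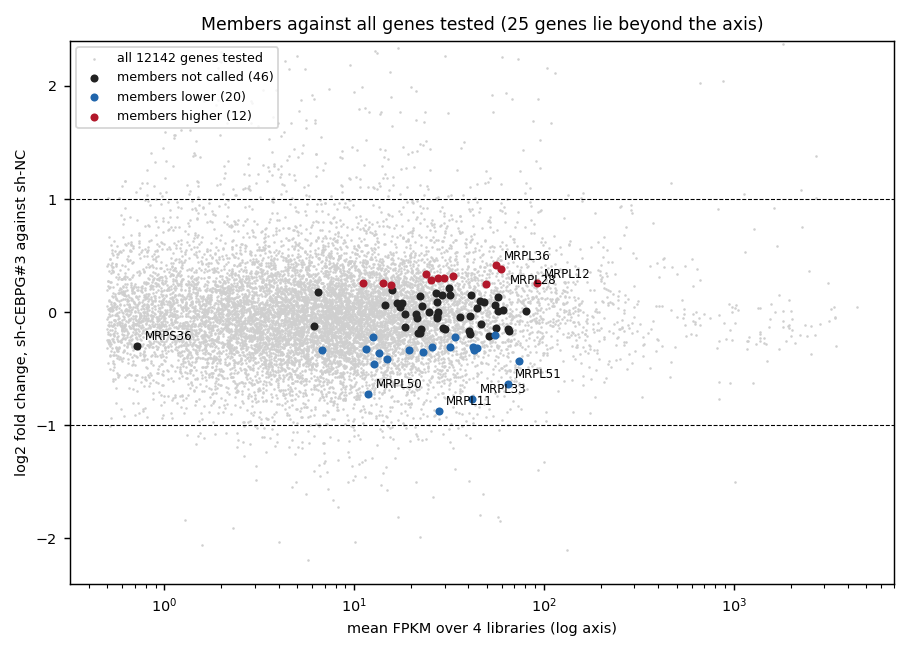
Log2 fold change of sh-CEBPG#3 against sh-NC (vertical axis) against mean FPKM over the 4 libraries (log axis) for all 12142 genes tested in gray and the 78 members in color. Dashed lines mark log2 fold changes of -1 and 1, which no member reaches, and 25 genes lie beyond the axis.

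The decrease was largest for MRPL11, a protein at the base of the stalk where translation factors dock (chromosome 11, 66435075 to 66466738, minus strand, GRCh38). It had 36.2 and 36.7 FPKM in sh-NC and 20.6 and 18.4 FPKM in sh-CEBPG#3. Both knockdown libraries were well under both controls, at 53.4% of the control mean (log2 fold change -0.87, SE 0.081, adjusted p = 2.51e-05 in limma). MRPL33, a small homologue of a bacterial large subunit protein (chromosome 2, 27771717 to 27988087, plus strand), had 51.8 and 54.3 FPKM against 27.2 and 34.9 FPKM. Here the knockdown libraries were lower too but differed more from each other (log2 fold change -0.76, SE 0.11, adjusted p = 0.000333).

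MRPL50 and MRPL51, both found only in mitochondrial ribosomes, fell as well. MRPL50 (chromosome 9, 101387633 to 101398618, minus strand) had 13.8 and 16.3 FPKM in sh-NC and 8.93 and 8.50 FPKM in sh-CEBPG#3 (log2 fold change -0.72, SE 0.096, adjusted p = 0.000264 in limma). MRPL51 (chromosome 12, 6491886 to 6493841, minus strand) had 77.7 and 80.1 FPKM against 47.6 and 53.8 FPKM (log2 fold change -0.63, SE 0.079, adjusted p = 0.000179). In each of these genes the groups were separated by a gap wider than the distance within either group. The calls of MRPL11, MRPL33, MRPL50 and MRPL51 were kept with every library left out in turn and under each of the 8 other settings tried. In a fit without a library, 1 group has a single library, which adds no spread of its own. The spread then comes from the other group and from limma's prior, and from that prior alone without either sh-NC library. In the GENCODE annotation 27.6% of the exon bases of MRPL51 overlap exons of NCAPD2 on the opposite strand, and 21.1% of those of MRPL33 overlap BABAM2 on the same strand. Exons of 41 members overlap another gene, over 10% of the exon bases on the opposite strand in 17 of them. Here and below, these shares are over the exons of all annotated transcripts of a gene together, not over the RefSeq transcripts measured. Whether the authors' counting used strand is not given in the sources used here, so that reads of overlapping genes may not be separated.

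A further 4 members completed the lowest 8. MRPS9, a homologue of bacterial S9 in the small subunit, had 15.5 and 14.3 FPKM in sh-NC and 10.9 and 10.2 FPKM in sh-CEBPG#3 (log2 fold change -0.46, SE 0.085, adjusted p = 0.00201 in limma). For MRPL18 the levels given above correspond to 73.7% of the control (log2 fold change -0.43, SE 0.078, adjusted p = 0.0016). MRPL39, a mitochondria-specific protein near the polypeptide exit, had 18.2 and 16.2 FPKM against 13.0 and 12.3 FPKM (log2 fold change -0.41, SE 0.088, adjusted p = 0.00408). The groups of these 3 genes did not overlap, and each call was kept with any library left out. MRPL46, a mitochondria-specific protein of the central protuberance, had 14.2 and 16.4 FPKM against 11.1 and 12.1 FPKM (log2 fold change -0.36, SE 0.094, adjusted p = 0.0112), and its call was lost without sh-NC replicate 2 (-0.26, adjusted p = 0.0519) and without sh-CEBPG#3 replicate 1 (-0.31, adjusted p = 0.0721). The other 12 lower members, MRPL15, MRPL37, MRPL45, MRPS18B, MRPS6, MRPS16, MRPS33, MRPL54, MRPS26, MRPS14, MRPL53 and MRPL3, had log2 fold changes of -0.35 to -0.20, and each lost its call without at least 1 library.

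Among the members that rose, MRPL36 and MRPL28 stood first. MRPL36, a very small homologue of bacterial L36 (chromosome 5, 1798385 to 1801366, minus strand), had 45.1 and 51.0 FPKM in sh-NC and 65.8 and 62.6 FPKM in sh-CEBPG#3 (log2 fold change 0.41, SE 0.081, adjusted p = 0.00257 in limma). MRPL28 (chromosome 16, 366969 to 371289, minus strand) had 49.9 and 53.1 FPKM against 70.1 and 64.7 FPKM (log2 fold change 0.38, SE 0.076, adjusted p = 0.0029). Every sh-CEBPG#3 library lay above every sh-NC library in both genes, which reached 134% and 131% of the control. MRPL55, a homologue of bacterial L31, had 29.0 and 30.1 FPKM against 37.2 and 37.2 FPKM (log2 fold change 0.32, SE 0.073, adjusted p = 0.00565). The calls of these 3 genes were kept with any library left out, and that of MRPL55 under each of the 8 other settings too.

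The calls of the remaining 5 genes among the highest 8 were each lost in at least 1 fit that left out a library. MRPL52 (22.3 and 19.6 FPKM against 26.4 and 26.9 FPKM, log2 fold change 0.33, adjusted p = 0.0099 in limma) lost its call without sh-CEBPG#3 replicate 2 (0.32, adjusted p = 0.0571). MRPS22, a mitochondria-specific small subunit protein (23.7 and 25.6 FPKM against 31.3 and 30.1 FPKM, 0.31, adjusted p = 0.0102), MRPS18A (26.1 and 27.2 FPKM against 34.3 and 31.9 FPKM, 0.30, adjusted p = 0.0106) and MRPL47, a homologue of bacterial L29 (22.7 and 22.8 FPKM against 29.0 and 26.8 FPKM, 0.28, adjusted p = 0.0144), lost theirs without sh-CEBPG#3 replicate 1 (0.28, 0.25 and 0.23, adjusted p = 0.0807, 0.107 and 0.132). MRPL30 (12.4 and 13.2 FPKM against 15.8 and 15.2 FPKM, 0.26, adjusted p = 0.0281) lost its call without sh-NC replicate 1, sh-CEBPG#3 replicate 1 or sh-CEBPG#3 replicate 2 (0.21, 0.23 and 0.29, adjusted p = 0.108, 0.139 and 0.0723). In all 5 genes the groups did not overlap. Exons of COPB2 and RSPH9 on the opposite strand cover 38.9% and 50.9% of the exon bases of MRPS22 and MRPS18A. The other 4 higher members, MRPL35, MRPL12, MRPL34 and MRPS17, had log2 fold changes of 0.24 to 0.26, and each lost its call without at least 1 library.

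Large and small subunit genes were then described apart, with the members placed by their position in the human mitoribosome. Of 51 large subunit genes 13 were lower and 10 higher (median log2 fold change -0.013), and of 26 small subunit genes 7 were lower and 2 higher (median -0.034). The shares called were 45.1% and 34.6%, on either side of the 42.2% of all genes tested, of which 23.8% were lower and 18.5% higher. With the most abundant transcript standing for each gene, 6 large subunit genes and no small subunit gene were called, where 10.7% of all genes were. The summed FPKM of the large subunit was 2.174 and 2.198 times that of the small subunit in sh-NC. It was 2.116 and 2.169 times in sh-CEBPG#3, slightly lower in both knockdown libraries, with the closest libraries of the groups nearly equal. Within the large subunit, the 30 homologues of bacterial proteins had 5 lower and 8 higher genes (median 0.012), and the 21 mitochondria-specific proteins had 8 lower and 2 higher (median -0.10). The latter summed to 624 and 647 FPKM in sh-NC and 580 and 570 FPKM in sh-CEBPG#3, lower in both knockdown libraries at 90.5% of the control. The mean of that sum was 635 FPKM in sh-NC and 575 FPKM in sh-CEBPG#3. MRPL51, whose exons overlap NCAPD2 (above), is 1 of the 21, and its mean was 78.9 and 50.7 FPKM. In the small subunit, 16 homologues had 4 lower and 1 higher gene (median -0.011) and 10 mitochondria-specific proteins had 3 lower and 1 higher (median -0.15). Without sh-NC replicate 1 the median of the large subunit was -0.077 and that of its bacterial homologues was -0.022. The median turned positive for the large subunit without sh-NC replicate 2 (0.034) and for the small subunit without sh-CEBPG#3 replicate 2 (0.0090). The difference between these classes was not tested.

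**Figure D3:**
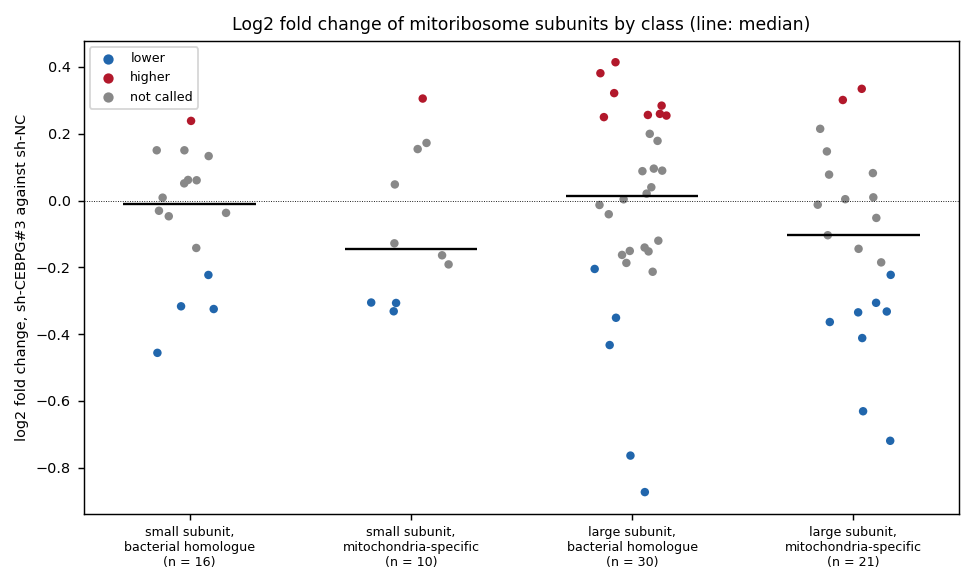
Log2 fold change of sh-CEBPG#3 against sh-NC for 77 mitoribosome genes in 4 classes, 1 point a gene, blue where lower, red where higher and gray where not called at an adjusted p of 0.05 in limma. Horizontal lines are class medians, and each class holds genes on both sides of 0.

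The stalk of the large subunit, which recruits the translation factors, held both the most decreased and the most abundant member. MRPL11 and MRPL54 were lower, MRPL53 was lower with an adjusted p close to the threshold, MRPL12 was higher and MRPL10, the protein that anchors MRPL12, was not called. MRPL54 had 48.9 and 45.2 FPKM in sh-NC and 37.5 and 38.1 FPKM in sh-CEBPG#3 (log2 fold change -0.31, SE 0.075, adjusted p = 0.00842 in limma), and its call was lost without sh-CEBPG#3 replicate 1 (-0.30, adjusted p = 0.0694) and without sh-CEBPG#3 replicate 2 (-0.32, adjusted p = 0.0534). MRPL53 had 35.3 and 38.5 FPKM against 32.3 and 30.7 FPKM (-0.22, SE 0.078, adjusted p = 0.043), and was called only in 1 of the 4 fits that left out a library, the one without sh-NC replicate 1. Exons of CCDC142 on the same strand cover 72.8% of the exon bases of MRPL53, and those of a long non-coding RNA on the opposite strand 79.4%. In MRPL12, exons of an unnamed protein-coding gene on the same strand cover 69.5% of the exon bases. MRPL12, with the levels given above, had a log2 fold change of 0.25 (SE 0.080, adjusted p = 0.0273), which among these 4 fits was called only in the one without sh-NC replicate 2, with adjusted p of 0.0743, 0.235 and 0.0752 without sh-NC replicate 1, sh-CEBPG#3 replicate 1 and sh-CEBPG#3 replicate 2. MRPL10 had 16.0 and 21.3 FPKM against 18.6 and 18.1 FPKM, the knockdown libraries lying between the controls. The ratio of MRPL12 to MRPL11, chosen after the values were seen, was 2.18 and 2.41 in sh-NC and 5.04 and 5.24 in sh-CEBPG#3.

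In other named regions of the large subunit the share called was 37.5% each, where 42.2% of all genes tested were called. Of 8 members listed for the central protuberance, MRPL18 and MRPL46 were lower, MRPL52 was higher and 5 were not called. The list used leaves out MRPL55, the homologue of bacterial L31 that was called higher. Of 8 members around the polypeptide exit, where nascent chains leave toward the inner membrane, MRPL39 and MRPL45 were lower, MRPL47 was higher and 5 were not called. The median log2 fold change of these 8 was -0.17. With each library left out, it ran from -0.25 (without sh-NC replicate 1) to 0.023 (without sh-NC replicate 2). MRPL23, at the exit, differed within each group by more than between them, with 18.4 and 29.1 FPKM in sh-NC and 16.2 and 25.1 FPKM in sh-CEBPG#3.

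The MRPS18 genes encode a family of paralogues, of which MRPS18B and MRPS18C lie in the small subunit and MRPS18A in the large subunit. MRPS18A was higher (above). MRPS18B had 7.44 and 7.95 FPKM in sh-NC and 5.89 and 5.93 FPKM in sh-CEBPG#3, lower in both knockdown libraries (log2 fold change -0.33, SE 0.0895, adjusted p = 0.0136 in limma), and its call was lost without sh-NC replicate 2 (-0.29, adjusted p = 0.0707). MRPS18C had 21.0 and 23.7 FPKM against 24.8 and 21.5 FPKM, with overlapping groups (0.051, adjusted p = 0.695). MRPS30, which despite its name also lies in the large subunit, had 28.6 and 30.05 FPKM against 36.1 and 32.3 FPKM (0.21, SE 0.082, adjusted p = 0.0576), and was called under quantile normalization (0.22, adjusted p = 0.0144) and with equal totals (0.19, adjusted p = 0.0256).

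The table lists 138 RefSeq transcripts of the members, 48 genes with 1 transcript and 30 with several. Tested as transcripts, 7 of 123 that passed the filter were called (5.69%), 5 lower and 2 higher, where 8.24% of 18624 transcripts of all genes were. In MRPL33 the fall was seen in 1 of 2 transcripts. NM_004891 had 41.1 and 44.4 FPKM in sh-NC and 18.05 and 24.97 FPKM in sh-CEBPG#3 (log2 fold change -0.98, SE 0.17, adjusted p = 0.0496 in limma over transcripts). NM_145330 had 10.7 and 9.84 FPKM against 9.16 and 9.91 FPKM, with overlapping groups (-0.096, SE 0.096). The share of the gene's FPKM assigned to NM_145330 went from 20.6% and 18.1% to 33.7% and 28.4%.

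MRPL43, a mitochondria-specific protein with 5 transcripts, was not called as a gene, while 1 of its transcripts was called higher and another had a negative log2 fold change that did not pass the test. The gene had 52.8 and 61.0 FPKM in sh-NC and 57.1 and 57.1 FPKM in sh-CEBPG#3. NM_032112 rose from 22.5 and 21.1 FPKM to 30.6 and 29.5 FPKM (log2 fold change 0.45, SE 0.072, adjusted p = 0.0434 in limma), and NM_176793 had 15.5 and 19.1 FPKM against 9.52 and 11.9 FPKM (-0.65, SE 0.16, adjusted p = 0.088). The groups of both transcripts did not overlap, although only the first passed the test. Exons of SEMA4G on the opposite strand cover 34.0% of the exon bases of MRPL43. In MRPS18A, NM_018135 had 13.6 and 15.7 FPKM against 19.9 and 28.2 FPKM (0.66, adjusted p = 0.118). NM_001193343 had 12.6 and 11.5 FPKM against 14.4 and 3.68 FPKM (-0.62, adjusted p = 0.558), so that the knockdown libraries split the gene differently between its transcripts.

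Single transcripts of other genes, named after their values were seen, gave the rest of the calls. The main transcripts of MRPL11 (NM_016050, log2 fold change -0.93, adjusted p = 0.0165 in limma), MRPL50 and MRPL51 were lower, as was NM_001300733 of MRPL9 (10.6 and 10.9 FPKM against 7.17 and 6.60 FPKM, -0.58, adjusted p = 0.0436), whose major transcript NM_031420 had 28.6 and 34.2 FPKM against 31.5 and 29.96 FPKM. NM_181463 of MRPL55 was higher, with 13.3 and 11.9 FPKM against 20.4 and 18.5 FPKM (0.59, adjusted p = 0.0473). Transcripts of a gene share most of their sequence and the program that divided the reads among them is not given in the sources used here, so that these shares are uncertain.

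The promoters of the members were read to show what letters they share, since the ETS factor GABP, YY1 and NRF1 are known regulators of nuclear genes for mitochondrial proteins. RefSeq promoters (GRCh38.p14, 250 bases before to 50 after the start) matched 69 of the 78 members. On both strands, CCGGAAG, the core that ETS factors bind, was found in 29 of the 69 (42.0%), against 10.7% of all 27305 promoters and 21.1% of those of 9185 tested genes. AAGATGGC, a YY1 site, was found in 20 (29.0%), against 3.03% and 5.88%. Either was in 41 members (59.4%, against 13.1% and 25.5%), both were in 8, and in no member did they share bases. Of 21 YY1 matches, 15 began at or after the start. GCGCATGC, bound by NRF1, was in 6 (8.70%, against 3.27% and 5.94%), and CACGTG, the E-box, in 6 (8.70%, against 7.43% and 10.6%).

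The ETS letters were found in 8 of 19 lower members with a promoter, 6 of 11 higher members and 15 of 39 not called, and the difference was not tested. Windows of 30 bases are shown for the 3 lower and the 3 higher members with the largest changes among those that held the letters before the start, to let the matching stretch be seen in genes that went opposite ways. They are written 5′ to 3′ on the strand of the gene, with the ETS core in capitals (CTTCCGG where it lies on the other strand), the first 3 from lower members and the last 3 from higher ones.
MRPL33 (chr2:27771689-27771718, plus strand): tcttccagaaccgggccgtgccCCGGAAGc
MRPL51 (chr12:6493348-6493377, minus strand): cggcaggcggaCCGGAAGcactgaggcggg
MRPL54 (chr19:3762650-3762679, plus strand): gccactgacgtCTTCCGGaaacgtgcactt
MRPS22 (chr3:139343904-139343933, plus strand): ggcccggaagaCTTCCGGccctttccgcct
MRPS18A (chr6:43687804-43687833, minus strand): ggcgctacgttCCGGAAGcggaaatggacg
MRPL47 (chr3:179604659-179604688, minus strand): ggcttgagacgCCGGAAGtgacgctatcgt
The first base of the core lay 8 bases before the start in MRPL33, 104 in MRPL51, 21 in MRPL54, 79 in MRPS22, 31 in MRPS18A and 39 in MRPL47. These starts are those of RefSeq. In MRPL51 and MRPS22 the window lies inside the span of the gene in GENCODE, which begins further upstream. MRPS22 held a second match, CCGGAAG, which stands in lower case in its window, 1 base before the capitals. MRPL51 held a second match that is not printed, and MRPL11 held none.

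Letters that CEBP dimers bind were found in shares near those of the promoters of tested genes. TGATGNAA, the composite element of CEBP and ATF proteins, was found in 1 of 69 member promoters (1.45%), against 3.67% of all promoters and 1.60% of those of tested genes. TTGCNNAA, the shared CEBP core, was in 6 (8.70%), against 10.6% and 7.04%, of which 3 were lower and 3 not called. The composite element belonged to MRPL55, 115 bases before the start, and is shown as the element most closely tied to the factor that was knocked down, with the match in capitals.
MRPL55 (chr1:228109396-228109425, minus strand): cgcccccgagaTTACATCAcgccgcgccgg
MRPL55 was higher in sh-CEBPG#3. A match of letters is a description of the window and no evidence of binding.

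Genes that work with the members were examined from lists of the same pathway. Of the mitoribosome subunits that do not carry the MRP name, GADD45GIP1, a large subunit protein, had 91.1 and 92.3 FPKM in sh-NC and 55.0 and 55.7 FPKM in sh-CEBPG#3. Its groups were far apart, at 60.4% of the control (log2 fold change -0.72, SE 0.068, adjusted p = 2.99e-05 in limma). DAP3, a GTP-binding protein of the small subunit, had 77.9 and 81.2 FPKM against 66.6 and 66.5 FPKM (-0.25, SE 0.069, adjusted p = 0.0145), and was not called without sh-CEBPG#3 replicate 1 (adjusted p = 0.112) or without sh-CEBPG#3 replicate 2 (adjusted p = 0.117). PTCD3 (-0.19), AURKAIP1 (0.086) and CHCHD1 (0.20) did not pass the test.

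Of 28 genes of mitoribosome assembly and modification of its RNA, 5 were lower and 1 higher (median log2 fold change -0.076), so that 21.4% were called where 42.2% of all genes tested were. RBFA, a small subunit assembly factor, had 4.26 and 4.52 FPKM in sh-NC and 3.103 and 2.71 FPKM in sh-CEBPG#3 (-0.47, SE 0.105, adjusted p = 0.00538 in limma). MTG1, a GTPase of large subunit assembly, had 37.3 and 40.5 FPKM against 29.3 and 30.3 FPKM (-0.37, SE 0.077, adjusted p = 0.00351). These calls were kept with any library left out but lost for the most abundant transcript (adjusted p = 0.126 and 0.0591), whereas RCC1L (-0.25, adjusted p = 0.045) and MPV17L2 (0.25, adjusted p = 0.0424) were each lost without 3 of the 4 libraries. Without sh-CEBPG#3 replicate 1 and replicate 2 the median of the list was -0.16 and -0.065. Scaling every library to the same total raised the count of the list to 13, of which 12 were lower, where 48.2% of all genes were called. For the most abundant transcript no gene of the list was called, where 10.7% of all genes were, and the median was 0.012. Without the filter on low values 2 were called, where 24.8% of all genes were.

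Of 17 mitochondrial translation factors, 2 were lower and 3 higher (median 0.055), a share called of 29.4% against 42.2% of all genes tested. OXA1L, which inserts newly made proteins into the inner membrane and binds the mitoribosome, rose from 75.4 and 82.9 FPKM to 114 and 106 FPKM, above both controls in both libraries (log2 fold change 0.48, SE 0.077, adjusted p = 0.000853 in limma). MTRF1, a release factor, had 7.06 and 7.07 FPKM against 4.68 and 5.07 FPKM (-0.46, SE 0.092, adjusted p = 0.00299). The recycling factor MRRF was lower (-0.25, adjusted p = 0.0292), and RMND1 (0.27, adjusted p = 0.044) and the elongation factor TUFM (0.25, adjusted p = 0.0206) were higher. These last 3 calls were lost without sh-CEBPG#3 replicate 1, and the median of the list was 0.031 in that fit. For the most abundant transcript 1 factor was called, where 10.7% of all genes were.

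Of 13 tested genes of mitochondrial transcription and its regulators, 5 were lower and 1 higher (median -0.16), and their share called, 46.2%, was near the 42.2% of all genes tested. TFB2M, a transcription factor of the mitochondrial RNA polymerase, had 31.6 and 34.4 FPKM in sh-NC and 27.3 and 26.0 FPKM in sh-CEBPG#3 (log2 fold change -0.30, adjusted p = 0.0122 in limma), and the coactivator PPRC1 had 18.9 and 21.0 FPKM against 16.5 and 14.9 FPKM (-0.33, adjusted p = 0.0136). Both calls were lost without sh-CEBPG#3 replicate 2 (adjusted p = 0.0976 and 0.11). Of the GABP subunits, GABPA, which holds the ETS domain, had 6.20 and 6.07 FPKM against 6.02 and 5.49 FPKM and was not called. Its partner GABPB1 was higher (7.60 and 7.70 FPKM against 9.19 and 9.75 FPKM, 0.28, adjusted p = 0.0265) and GABPB2 was lower (4.38 and 5.29 FPKM against 3.28 and 3.67 FPKM, -0.38, adjusted p = 0.0197). The call of GABPB1 was lost in every fit that left out a library, with adjusted p between 0.0509 and 0.132, and that of GABPB2 without sh-NC replicate 2 (0.144) and without sh-CEBPG#3 replicate 1 (0.0848). YY1 (0.024) and NRF1 (-0.16) did not pass the test, and PPARGC1A stayed at or below 0.0455 FPKM and was not tested. Fewer genes of the list were called with each library left out, as were fewer of all genes tested. The median of the list then ran from -0.19 (without sh-NC replicate 1) to -0.093 (without sh-NC replicate 2). For the most abundant transcript none was called, where 10.7% of all genes were, and the median was 0.059. Without the filter 1 was called, where 24.8% of all genes were.

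**Figure D4:**
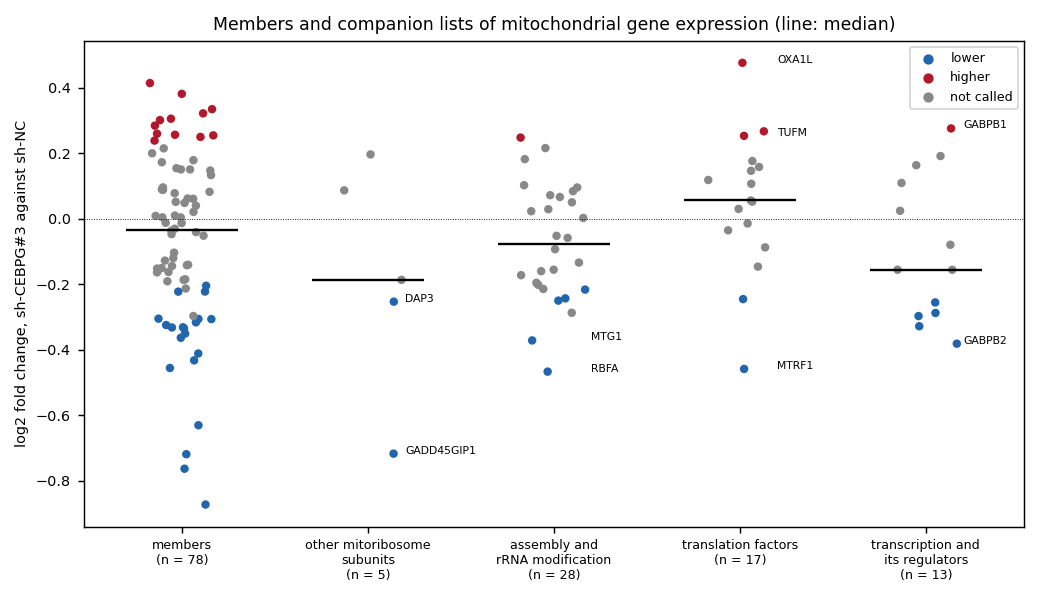
Log2 fold change of sh-CEBPG#3 against sh-NC for the 78 members and the 4 lists of genes that work with them, 1 point a gene, blue where lower, red where higher and gray where not called at an adjusted p of 0.05 in limma. Horizontal lines are medians, from -0.19 for the other subunits to 0.055 for the translation factors.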

How the data were processed

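RNA-seq of MV4-11 cells was used, with 2 sh-NC and 2 sh-CEBPG#3 libraries grouped by the labels. The authors filtered the reads and mapped them with HISAT2 2.0.5 to hg38 per the labels, and the deposited table holds an FPKM for every RefSeq transcript and library. The unit comes from the study's methods, since the table names none, and the program that computed it and the annotation release are not given in the sources used here. Of 28780 transcripts listed, 28581 had values, and they were summed per gene symbol. Totals were 364353 and 388061 (sh-NC) and 389766 and 376167 FPKM (sh-CEBPG#3). As no read counts were used here, precision from depth cannot be given.

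Genes averaging 0.5 FPKM or more were fitted on log2(FPKM + 1) in R 4.3.3 by limma 3.58.1, with lmFit followed by eBayes with a trend, two-sided, without a block and with Benjamini-Hochberg adjustment over the 12142 genes tested. This replaces the study's count test, which FPKM do not allow. A log2 fold change on this scale understates that of low genes. With 2 libraries a group the smallest p of an exact permutation test is 0.333, so that the p-values depend on the variance that limma models across genes. The fits were tested on simulated data. Transcripts were tested likewise.

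The genes named are CEBPG, the 8 lowest and 8 highest members called, the 5 most and 3 least abundant, the stalk and MRPS18 genes, MRPS30, MRPS36, members with transcripts that went opposite ways by over 0.5, the other subunits, and up to 3 genes each way from each further list. Others were named after their values were seen. The members and lists were chosen with earlier results of these data known. The settings varied were the pseudocount (0.1 and 0.01), the filter (none, and 1 FPKM on average) and the scaling (quantile normalization and equal totals). Others were a block for the replicate number, the most abundant transcript in place of the sum, and leaving out each library. A single library left in a group adds no spread of its own. The prior degrees of freedom of limma were infinite without either sh-NC library and with the block. Every gene of a given level then had the same modelled variance. They were 8.02 in the main fit, 2.58 without the filter and 2.17 over transcripts. Fewer of them give a larger p for the same log2 fold change and SE. Coordinates and exon overlaps come from GENCODE release 44 on GRCh38, and promoter sequences from RefSeq on GRCh38.p14, read with Python 3.11.15.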

Additional observations from a re-analysis of the deposited data

How the results depend on the processing

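The number of members called moved most when the most abundant transcript stood for a gene, with 6 called (4 lower and 2 higher), where 10.7% of all genes were called. The 48 members with 1 transcript have the same values in that fit. That fit is the one over transcripts, so that its p-values were adjusted over all 18624 transcripts tested. Its prior degrees of freedom were 2.17 against 8.02 in the main fit. MRPL18, with the same log2 fold change of -0.43, there had an adjusted p of 0.0528 in limma. A call lost in that fit thus does not by itself show that transcripts and gene sums differ. Without the filter on low values 15 were lower and 7 were higher, 28.2% of the members against 24.8% of all genes. The share of all genes called was below that of the main fit with each library left out. The numbers of members called in those fits thus do not by themselves set the members apart from other genes. With each library left out, 18 to 37 members were called, 11 to 27 lower and 5 to 12 higher, and the median log2 fold change lay between -0.076 and 0.020. No fit put a member past an absolute log2 fold change of 1 with an unadjusted p of 0.05. Quantile normalization raised the number called to 40 (24 lower and 16 higher, 51.3% against 47.4% of all genes) and equal totals to 38 (26 lower and 12 higher, 48.7% against 48.2%), and 29 of the 32 calls were kept under each, as were 22 without the filter, and 5 were kept in every fit (MRPL11, MRPL33, MRPL50, MRPL51 and MRPL55).

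Among the genes named by rule, whose values were recomputed under each setting, the log2 fold changes that turned sign were of genes that were not called, except DAP3, which was 0.018 for its most abundant transcript. The medians of the assembly and the transcription lists turned positive for the most abundant transcript (0.012 and 0.059), and that of the assembly list also without sh-NC replicate 2 (0.011). Under quantile normalization they were those of MRPS12 (-0.039), MRPL43 (-0.030) and MRPL10 (0.015), with equal totals MRPS12 (-0.017) and MRPL43 (-0.016), and for the most abundant transcript MRPS12 (-0.28) and AURKAIP1 (-0.0027). With each library left out, MRPS12 ran from -0.032 to 0.049, MRPL43 from -0.093 to 0.11, MRPL10 from -0.21 to 0.18, MRPS18C from -0.047 to 0.15 and MRPS36 from -0.81 to 0.21. MRPS36 was called only without sh-NC replicate 2 (-0.81, adjusted p = 0.000116 in limma). Quantile normalization and equal totals each brought calls of MRPS30, MRPS34 and PTCD3. The cause was not tested.

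Same-numbered libraries were not paired in the labels, and their deviations correlated at 0.061 over the 12142 genes. With the replicate number as a block, 24 of the 32 calls were kept, 17 lower and 7 higher. The share of members called was 30.8%, where 39.2% of all genes were called, and the prior degrees of freedom were infinite. In that fit 2 assembly genes, 2 translation factors and 4 transcription genes were called.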

Other observations

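Pairs of genes that start within 1000 bases of each other on opposite strands were common among the members. Of 69 members with a RefSeq promoter, 22 had such a neighbour (31.9%), against 16.4% of all promoters and 25.2% of those of tested genes. In 17 cases the neighbour was tested, and in 2 both genes were called. MRPL51 and its neighbour NCAPD2, a condensin subunit, were both lower, NCAPD2 having 32.1 and 34.4 FPKM in sh-NC and 23.0 and 23.0 FPKM in sh-CEBPG#3 (log2 fold change -0.51, adjusted p = 0.000506 in limma), and exons of these genes overlap. MRPL50 was lower while ZNF189, whose start lies 233 bases away, was higher, with 4.66 and 4.38 FPKM against 6.52 and 6.83 FPKM (0.48, adjusted p = 0.00255). MRPL46 and MRPS11, whose starts lie 320 bases apart, share 1 promoter region. MRPL46 was lower and MRPS11 had 12.8 and 15.6 FPKM against 15.1 and 14.5 FPKM (0.06, adjusted p = 0.651). Over all 646 tested pairs, 111 had both genes called, and 59.5% of these went the same way. These pairs were chosen after the values were seen.

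The table also lists transcripts named after members that are pseudogenes or lie antisense to them. MRPS31P5 (4.25 and 4.72 FPKM in sh-NC, 4.24 and 3.88 FPKM in sh-CEBPG#3) and MRPL45P2 (2.36 and 2.25 FPKM against 2.13 and 2.85 FPKM) were not called, nor was MRPL20-AS1 (10.7 and 10.2 FPKM against 12.1 and 11.6 FPKM, adjusted p = 0.137). Reads shared between MRPS31 or MRPL45 and these copies may not be separated.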
